A study of Mus musculus with 9 samples.

Results

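Transcripts of 9 genes were selected on their measured fold changes in these same libraries, because a synthetic DNA and a synthetic RNA moved them differently. The genes are Trp53inp1, Ddit4, Lpin1, Mmp15, Celf5, Slc19a2, Ndnf, Ces1g and Wnt9a, 9 of the 46603 gene identifiers in the count tables, and all 9 were among the 14176 genes tested. Each had been chosen by its values for being higher after 1 mimic and lower, or much less raised, after the other. The choice used measured values of all 3 comparisons and carried no numerical threshold, so the levels of the 9 genes are given as descriptions, without a test. The choice was not exhaustive: 76 tested genes were called higher after the DNA and lower after the RNA, 6 of the 9 among them, and 98 were called the other way round, 2 of the 9 among them.

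RNA sequencing was done on fibroblasts of BALB/c mouse embryos at 10.5 days (MEFs) that carry a β-actin knockout, with 3 libraries in each of 3 groups. The mock group received the carrier lipid Lipofectamine alone in Opti-MEM for 6 h. In the other groups the lipid carried 10 µg/ml of either poly(dA:dT), which is double-stranded synthetic DNA (the DNA mimic), or poly(I:C), which is double-stranded synthetic RNA (the RNA mimic). The knockout is shared by all 3 groups, the cells are a line obtained from another laboratory, and cells with intact β-actin were not analysed here. The labels do not say whether the 3 libraries of a group came from separate cultures, so the p-values speak of the spread among these libraries, which may be technical, and of nothing wider. Library totals of assigned counts spanned 19826550 to 29219797 for mock, 20738109 to 23185293 for the DNA mimic and 16082772 to 22382837 for the RNA mimic. Reads of Actb, the deleted gene, were at 33.3 ± 1.29, 30.6 ± 1.29 and 32.4 ± 1.34 CPM (counts scaled to library size, with TMM factors) in the mock, DNA and RNA groups (SD, n = 3), and the sources used here do not give how much of the gene is deleted.

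Cells read double-stranded DNA in the cytosol mainly through cGAS and STING, and double-stranded RNA mainly through RIG-I, MDA5 and TLR3. Both routes end in type I interferon, and RNA polymerase III can also turn poly(dA:dT) into RNA that RIG-I detects. Most of the 9 genes are not classical interferon genes. They belong to stress signalling (Trp53inp1, Ddit4), lipid handling (Lpin1, Ces1g), the pericellular matrix (Mmp15), RNA processing (Celf5), vitamin transport (Slc19a2) and secreted signals (Ndnf, Wnt9a).

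A gene is called here when its Benjamini-Hochberg adjusted p from the quasi-likelihood test of edgeR, fitted over all 9 libraries, was below 0.05. Calls were frequent. Against mock, poly(dA:dT) raised 26.6% and lowered 26.2% of the 14176 genes, and poly(I:C) raised 39.8% and lowered 36.3%. Between the mimics, 31.3% were higher and 32.1% lower after poly(I:C) than after poly(dA:dT). Scaling by total counts in place of TMM factors shifted the median gene by 0.11 (log2) in the comparison of poly(I:C) with mock, and it raised the share of calls that were increases from 50.3% to 67.7% for poly(dA:dT) against mock. Interferon genes listed to describe the treatments (Ifnb1, Ifit1, Ifit3, Isg15, Cxcl10, Ccl5, Mx2, Oasl1 and Irf7) rose after both mimics, 9 of 9 each time, and all 9 were higher after poly(I:C) than after poly(dA:dT). Their median log2 fold change was 4.82 after the DNA mimic and 8.35 after the RNA mimic. These 9 interferon genes were listed with earlier results of these data known, so their rise is a description and not an independent check.

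The 9 genes fell into 3 orders of mean level. Trp53inp1, Ddit4, Lpin1, Mmp15, Celf5 and Slc19a2 were highest after poly(dA:dT), intermediate in mock and lowest after poly(I:C). Ndnf and Ces1g had the opposite order, highest after poly(I:C) and lowest after poly(dA:dT). Wnt9a was highest after poly(dA:dT), with mock lowest and poly(I:C) close above it. The libraries of poly(dA:dT) and mock did not overlap for any of the 9 genes, 7 being higher and 2 lower after the DNA, where 29.1% and 28.2% of all genes did not overlap in these directions and 26.6% and 26.2% were called. For poly(I:C) and mock, 8 of 9 did not overlap, 2 higher and 6 lower, beside 40.3% and 36.5% of all genes not overlapping and 39.8% and 36.3% called. Between the mimics, none of the 9 overlapped, with 2 higher and 7 lower after poly(I:C), beside 32.9% and 33.2% of all genes not overlapping and 31.3% and 32.1% called. These comparisons chose the genes, so nothing is read from the counts. The 2 comparisons with mock share the mock libraries.

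**Figure D1:**
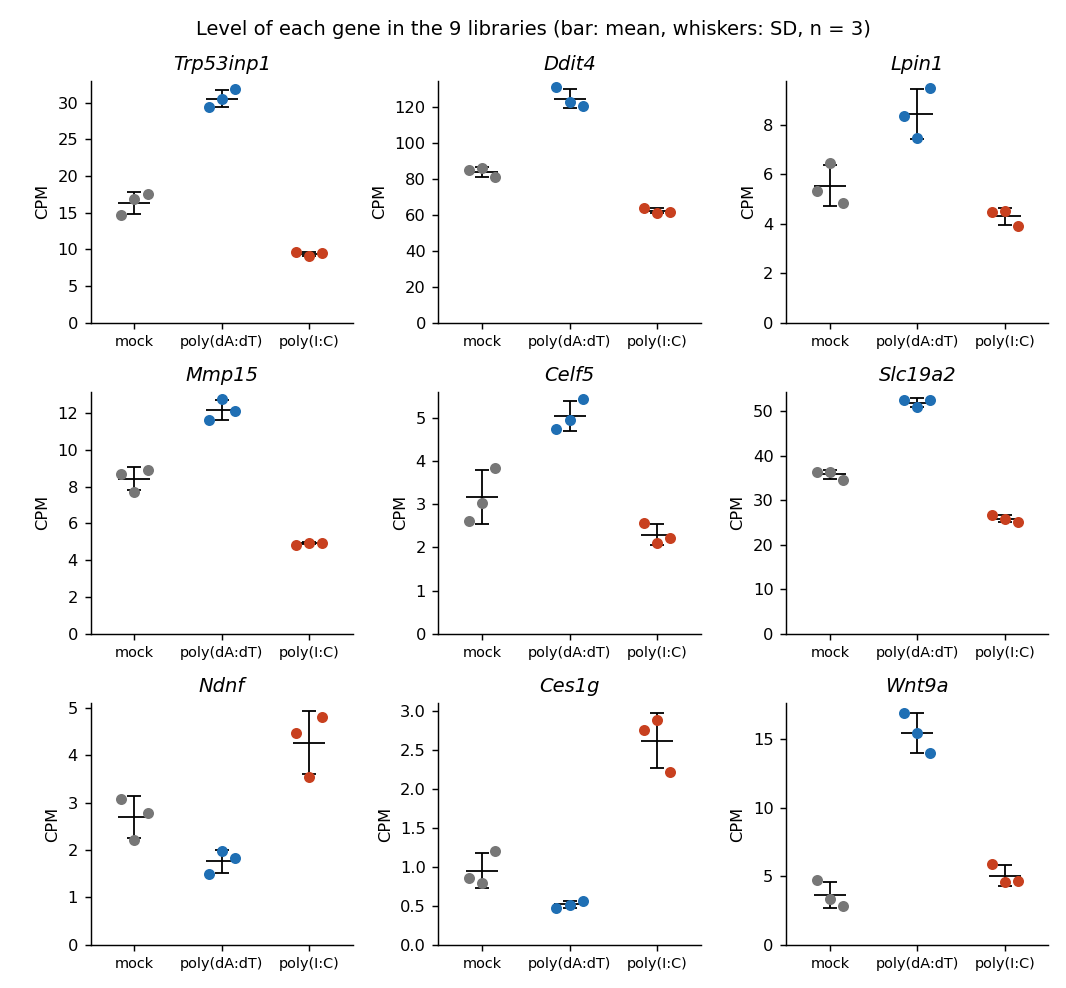
Level of each of the 9 genes in CPM (counts scaled to library size, vertical axis from 0) in the 3 mock (grey), 3 poly(dA:dT) (blue) and 3 poly(I:C) (red) libraries; points are libraries, horizontal bars are means and whiskers are SD (n = 3). Trp53inp1 to Slc19a2 step up after the DNA and down after the RNA, Ndnf and Ces1g do the reverse, and the mock and poly(I:C) points of Wnt9a overlap.

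Because 6 of the genes shared an order, the sequences just upstream of their starts were examined in the RefSeq promoter windows of GRCm38.p6, which run from 250 bases before to 50 bases after a start. Windows were matched for 7 of the 9 genes; Trp53inp1 and Ndnf were not matched. Printed below, 5′ to 3′ on the strand of the gene, are stretches upstream of the annotated start from 3 genes that were high after the DNA mimic and low after the RNA mimic (Ddit4, Slc19a2 and Celf5) and from Ces1g, which had the opposite order. They were chosen because they hold a marked motif. Of the windows not printed, that of Lpin1 held no searched motif, that of Mmp15 held the GC box alone, and that of Wnt9a is described in words. Capitals mark the searched motifs other than the GC box.
Ddit4, chr10:59951835-59952014, minus strand: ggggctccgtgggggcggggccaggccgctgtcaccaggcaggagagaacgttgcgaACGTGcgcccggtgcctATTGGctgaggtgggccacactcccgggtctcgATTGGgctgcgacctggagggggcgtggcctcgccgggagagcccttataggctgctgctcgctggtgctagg
Slc19a2, chr1:164248866-164249045, plus strand: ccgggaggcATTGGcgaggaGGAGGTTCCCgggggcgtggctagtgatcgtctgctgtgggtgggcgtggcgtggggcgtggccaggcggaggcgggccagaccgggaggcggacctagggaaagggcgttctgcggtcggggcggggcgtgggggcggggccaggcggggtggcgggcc
Celf5, chr10:81482710-81482889, minus strand: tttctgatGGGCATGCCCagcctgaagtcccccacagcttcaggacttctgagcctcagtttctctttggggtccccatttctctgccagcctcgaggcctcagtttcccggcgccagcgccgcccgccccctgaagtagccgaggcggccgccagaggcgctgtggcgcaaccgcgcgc
Ces1g, chr8:93337309-93337459, minus strand: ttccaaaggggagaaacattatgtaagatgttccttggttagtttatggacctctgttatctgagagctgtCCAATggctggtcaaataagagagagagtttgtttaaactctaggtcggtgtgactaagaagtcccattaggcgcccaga

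The Ddit4 stretch holds ACGTG, the core of the hypoxia element, and CCAAT boxes read on the other strand as ATTGG. The hypoxia core was present in 3 of the 7 windows (Ddit4, Celf5 and Wnt9a) and in 19.6% of the 32851 RefSeq windows. In Wnt9a it lies inside the E-box CACGTG, which 7.15% of all windows hold. The Slc19a2 stretch holds an NF-kB site on the strand opposite to the gene, a motif in 8.46% of all windows and in none of the other 6. The Celf5 stretch holds GGGCATGCCC, a match to the p53 half-site that 8.36% of all windows have, 172 bases upstream of its GENCODE start. No other of the 7 windows held a p53 half-site.

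CCAAT was found in 3 of 7 windows (Ddit4, Slc19a2 and Ces1g) against 37.4% of all windows, and GGGCGG, the GC box, in 5 of 7 against 35.7%. The CRE half-site TGACG was found only in Celf5, downstream of the start (20.8% of all windows), and TATAAA only in Ces1g, on the strand opposite to the gene and downstream of the GENCODE start (13.6%). No window of the 7 held the ATF4 composite site TTGCNTCA (3.69% of all windows), the AP-1 site TGANTCA (7.81%), the ISRE core GAAANNGAAA (3.44%) or the glucocorticoid element GNACANNNTGTNC (0.475%). Both strands were searched. The windows of Wnt9a and Slc19a2 were 83.3% and 72.0% G and C, and those of Ddit4, Celf5 and Mmp15 were 69%, 66.3% and 66%. Those of Lpin1 and Ces1g were 55.3% and 45.0%, and the median window was 52.7%. The 5 windows with a GC box were thus the 5 richest in G and C, and base composition was not allowed for in the comparison with all windows. A match describes letters in the window and is not shown to be a bound site.

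Trp53inp1 (ENSMUSG00000028211, GRCm38 chromosome 4, 11156431 to 11174379, plus strand) encodes a stress-induced protein that is a target of p53 and binds ATG8-family proteins of the autophagosome. Its level was 14.7, 16.8 and 17.5 CPM in mock replicates 1 to 3, 29.4, 30.5 and 31.8 CPM after the DNA mimic, and 9.65, 9.05 and 9.42 CPM after the RNA mimic. The 3 groups were separate, and every poly(dA:dT) library was above every mock library and every poly(I:C) library below. Group means in the same order were 16.3 ± 1.46, 30.5 ± 1.21 and 9.37 ± 0.302 CPM (SD, n = 3). The fitted log2 fold change against mock was 0.92 ± 0.07 (SE) after poly(dA:dT), a 1.89-fold higher level, and -0.79 ± 0.09 after poly(I:C), a 1.73-fold lower level. Between the mimics the level was 3.26-fold lower after poly(I:C), with a log2 difference of -1.71 ± 0.08. In a bulk sample, fewer cells that express a gene and less RNA per cell cannot be told apart.

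Ddit4 (ENSMUSG00000020108, chromosome 10, 59949669 to 59951834, minus strand), also known as REDD1, encodes a stress-induced inhibitor of the growth kinase complex mTORC1. It had 84.9, 86.1 and 81.0 CPM in the mock libraries, 131.1, 122.9 and 120.6 CPM after the DNA mimic, and 63.8, 61.2 and 61.8 CPM after the RNA mimic. No library of a group reached the range of another group. Fitted log2 fold changes were 0.57 ± 0.03 after the DNA mimic and -0.43 ± 0.04 after the RNA mimic, and the level was 2.00-fold lower after the RNA mimic than after the DNA mimic. Ddit4 had the highest level per kilobase of exon of the 9 genes, 47.8, 71.2 and 35.5 CPM per kilobase in mock, poly(dA:dT) and poly(I:C).

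Lpin1 (ENSMUSG00000020593, chromosome 12, 16535669 to 16610966, minus strand) encodes a phosphatidate phosphatase that makes diacylglycerol, the precursor of triglycerides and phospholipids. Its level was 5.33, 6.44 and 4.84 CPM in mock, 8.34, 7.44 and 9.48 CPM after the DNA mimic, and 4.46, 4.53 and 3.90 CPM after the RNA mimic. The poly(dA:dT) libraries stood clear of the rest, while the lowest mock library was only just above the highest poly(I:C) library. The log2 fold change was 0.60 ± 0.12 after the DNA mimic and -0.36 ± 0.14 after the RNA mimic. Without mock replicate 2 the latter was -0.25. The log2 difference between the mimics was -0.96 ± 0.13, 1.94-fold lower after poly(I:C), the smallest of the 9 genes.

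Mmp15 (ENSMUSG00000031790, chromosome 8, 95352268 to 95375080, plus strand) encodes a membrane-anchored matrix metalloproteinase, a protease that cleaves extracellular matrix at the cell surface. Its level was 8.70, 7.72 and 8.89 CPM in mock, 11.6, 12.8 and 12.1 CPM after the DNA mimic, and 4.85, 4.96 and 4.92 CPM after the RNA mimic. The groups were separate, and the poly(I:C) libraries were the tightest group, 4.91 ± 0.0546 (SD, n = 3). Against mock, the log2 fold change was 0.53 ± 0.10 after the DNA mimic and -0.78 ± 0.12 after the RNA mimic. Mmp15 was 2.48-fold lower after poly(I:C) than after poly(dA:dT).

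Celf5 (ENSMUSG00000034818, chromosome 10, 81459227 to 81482709, minus strand) encodes an RNA-binding protein of the CELF family, which regulates splicing. Each mock library held 73 raw counts, the poly(dA:dT) libraries 99, 116 and 125, and the poly(I:C) libraries 53, 49 and 37. Scaled to depth, that was 2.61, 3.03 and 3.84 CPM in mock, 4.74, 4.96 and 5.44 CPM after the DNA mimic, and 2.57, 2.11 and 2.22 CPM after the RNA mimic. The poly(dA:dT) libraries were above all others, whereas mock replicate 1 and poly(I:C) replicate 1 almost touched. The log2 fold change was 0.70 ± 0.15 after the DNA mimic and -0.43 ± 0.18 after the RNA mimic, the latter ranging from -0.57 without mock replicate 1 to -0.30 without mock replicate 3. The antisense gene Gm16105 overlaps 543 exonic bases of Celf5 and had 0 counts in the 9 libraries, and the library kit does not mark strand.

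Slc19a2 (ENSMUSG00000040918, chromosome 1, 164249046 to 164265385, plus strand) encodes a high-affinity transporter of thiamine, vitamin B1. Its level was 36.4, 36.5 and 34.7 CPM in mock, 52.5, 50.9 and 52.6 CPM after the DNA mimic, and 26.7, 25.7 and 25.1 CPM after the RNA mimic. The 3 groups were separate, with an SD of at most 1.00 CPM in any group. Its log2 fold change was 0.53 ± 0.05 after poly(dA:dT), -0.47 ± 0.06 after poly(I:C) and -1.01 ± 0.05 between the mimics. Its profile over the 9 libraries was the closest to that of Ddit4 among pairs of the 9 genes (Pearson r = 0.996 on log2 CPM).

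Ndnf (ENSMUSG00000049001, chromosome 6, 65671590 to 65712326, plus strand) encodes a secreted glycoprotein named for its support of neurons. Its level was 3.08, 2.20 and 2.79 CPM in mock, 1.49, 1.97 and 1.83 CPM after the DNA mimic, and 4.46, 3.53 and 4.80 CPM after the RNA mimic. The order was the reverse of the genes above, and mock replicate 2 lay close to poly(dA:dT) replicate 2. The log2 fold change was -0.61 ± 0.20 after the DNA mimic and 0.64 ± 0.17 after the RNA mimic, and the level was 2.38-fold higher after the RNA mimic than after the DNA mimic. Per kilobase of exon, Ndnf was the lowest of the 9 genes in mock and after poly(dA:dT), at 0.266 and 0.174 CPM per kilobase, where it rested on 192 and 119 counts in all.

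Ces1g (ENSMUSG00000057074, chromosome 8, 93302369 to 93337308, minus strand) encodes a carboxylesterase, an enzyme known mainly from liver that hydrolyses esters, including those of lipids. It rested on few reads, with 24, 19 and 23 counts in mock, 10, 12 and 13 after the DNA mimic, and 57, 67 and 37 after the RNA mimic. The levels were 0.859, 0.789 and 1.21 CPM in mock, 0.479, 0.513 and 0.565 CPM after the DNA mimic, and 2.76, 2.89 and 2.22 CPM after the RNA mimic. Every poly(I:C) library was above every mock library, and every poly(dA:dT) library below. Fitted log2 fold changes were -0.84 ± 0.34 after poly(dA:dT), 1.50 ± 0.25 after poly(I:C) and 2.34 ± 0.29 between the mimics, a 5.05-fold higher level after poly(I:C). Among the 14176 genes, 311 had a larger absolute log2 difference between the mimics. The Ces1 genes are close copies of each other and the sources used here do not give how shared reads were counted, so its counts are uncertain. Summed markers of hepatocytes, where Ces1g is best known, lay between 0.107 and 0.211 CPM in mock, between 0.192 and 0.435 CPM after the DNA mimic, and between 0.242 and 0.603 CPM after the RNA mimic, with Ttr and Hnf4a at 0 in every library. All 8 hepatocyte markers were too low to test. The sums rest on few reads, 3 counts being 0.107 CPM in mock replicate 1, so no change is read from them.

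Wnt9a (ENSMUSG00000000126, chromosome 11, 59306928 to 59333552, plus strand) encodes a secreted ligand of the Wnt family. Its level was 4.73, 3.32 and 2.84 CPM in mock, 16.9, 15.4 and 14.0 CPM after the DNA mimic, and 5.92, 4.57 and 4.68 CPM after the RNA mimic. The poly(dA:dT) libraries were far above the rest, while mock replicate 1 lay above 2 of the 3 poly(I:C) libraries, so those groups overlapped. Against mock, the log2 fold change was 2.05 ± 0.11 after poly(dA:dT), a 4.13-fold higher level, and 0.44 ± 0.14 after poly(I:C). The latter was 0.70 without mock replicate 1 and 0.31 without poly(I:C) replicate 1. Between the mimics Wnt9a was 3.05-fold lower after poly(I:C).

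**Figure D2:**
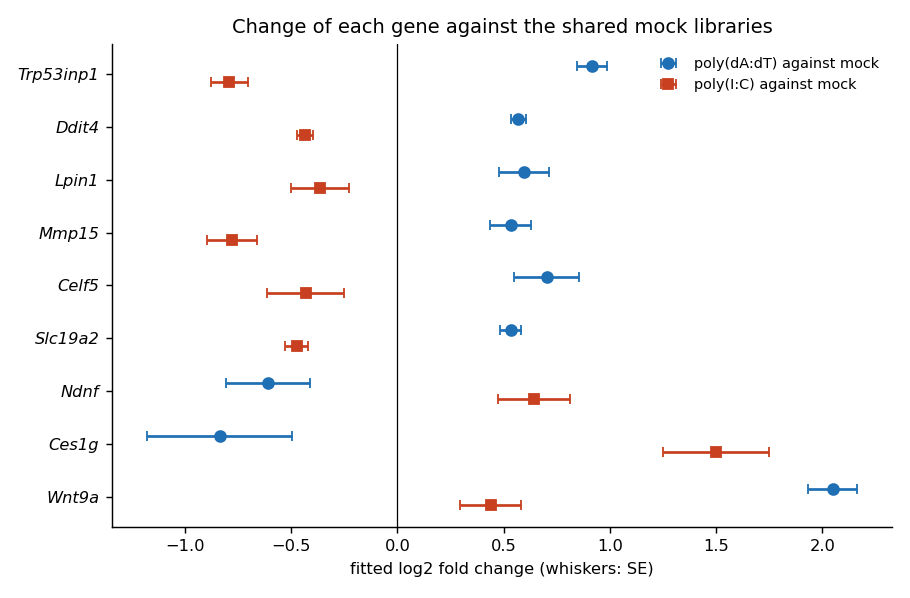
Fitted log2 fold change against mock of each gene after poly(dA:dT) (blue circles) and after poly(I:C) (red squares), horizontal axis, with whiskers of 1 SE; both use the same 3 mock libraries. The circles of Trp53inp1 to Slc19a2 lie right of 0 and their squares left of it, Ndnf and Ces1g are mirrored, and both marks of Wnt9a lie right of 0, at 2.05 and 0.44.

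The sizes were unequal as well as the directions. Absolute log2 fold changes ran from 0.53 to 2.05 for poly(dA:dT) against mock, from 0.36 to 1.50 for poly(I:C) against mock, and from 0.96 to 2.34 between the mimics. Only Wnt9a reached a 2-fold difference for poly(dA:dT) against mock and only Ces1g for poly(I:C) against mock, while 8 of 9, all but Lpin1, did so between the mimics. Over the 9 libraries, the 6 genes high after the DNA mimic and low after the RNA mimic had pairwise correlations of log2 CPM from 0.879 (Lpin1 with Mmp15) to 0.996. Ndnf and Ces1g correlated at 0.917, and Wnt9a at 0.632 to 0.775 with the 6. These points are 9 libraries in 3 groups, and their likeness mostly restates the 3 group means.

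**Figure D3:**
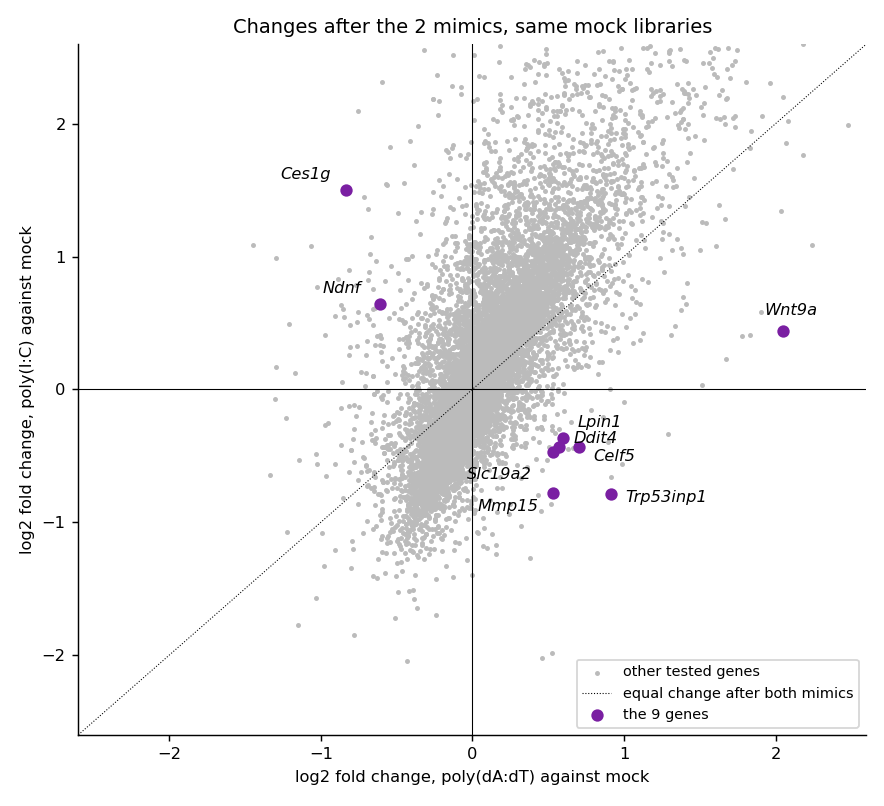
Log2 fold change against mock after poly(dA:dT) (horizontal axis) and after poly(I:C) (vertical axis) for 13665 of the tested genes within the axis range (grey) and the 9 genes (purple); 511 genes lie outside the range, and the dotted line marks equal change. Both axes share the mock libraries, and the 9 genes lie off the dotted line because they were chosen for that.

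Among other tested genes, the profiles most like these were found by Pearson correlation of log2 CPM over the 9 libraries, as a description. Apaf1 was the closest to Trp53inp1 (r = 0.992) and was also among the 3 closest to Ddit4 (0.981) and Slc19a2 (0.984). Its mean level was 49.2 CPM in mock, 58.8 after the DNA mimic and 40.4 after the RNA mimic, a narrower span than that of the 3 genes. Ccng1 was the closest to Mmp15 (r = 0.995) and among the 3 closest to Trp53inp1 (0.981) and Slc19a2 (0.983), with 183.5, 228.7 and 136.2 CPM in the same order of groups. The other close profiles were Camk2g for Trp53inp1, Pitpnm2 (r = 0.984) and Trabd for Ddit4, Kat14 (0.981), Sbk1 and Pi4kb for Lpin1, and Tmx2 and Itpkb for Mmp15. Itpkb was also close to Slc19a2, and Poglut1 (0.970), Nanos1 and Nploc4 were closest to Celf5.

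For the genes highest after poly(I:C), the closest profiles were P2rx3 (r = 0.984), Nectin2 and Dcaf6 for Ndnf, and Vdac3 (0.988), Oxr1 and mt-Co1 for Ces1g. The mean level of mt-Co1 was 676.8 CPM in mock, 543.8 after the DNA mimic and 938.6 after the RNA mimic. Wnt9a was closest to Mdm2 (r = 0.968), Sgsm2 (0.966) and Ddit4l (0.965). Mdm2 had 98.7 CPM in mock, 244.3 after the DNA mimic and 130.9 after the RNA mimic, and Ddit4l had 7.98, 25.4 and 9.33 CPM. Both were thus high after the DNA with poly(I:C) just above mock, as for Wnt9a.

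Relatives of the 9 genes in small families did not share one pattern. Trp53inp2, the paralog of Trp53inp1, fell after both mimics, from 50.6 CPM in mock to 40.1 after the DNA mimic and 30.9 after the RNA mimic. Ddit4l, the paralog of Ddit4 and likewise an inhibitor of mTORC1, rose after both, with log2 fold changes of 1.67 ± 0.08 after the DNA mimic and 0.23 ± 0.10 after the RNA mimic, and was 2.72-fold lower after the RNA mimic than after the DNA mimic. Lpin2 fell after both mimics (-0.18 and -0.50). Lpin3 fell after poly(I:C) (-0.51 ± 0.19) and had a log2 fold change of 0.06 ± 0.17, not called, after poly(dA:dT).

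Among the membrane-type metalloproteinases, Mmp14 fell from 125.2 CPM in mock to 100.1 after the DNA mimic and 57.9 after the RNA mimic. Mmp17 and Mmp24 rose after poly(I:C) by 0.73 and 2.35 on the log2 scale, on 57 and 11 counts in all of mock and 80 and 49 after poly(I:C). Neither was called after poly(dA:dT), and Mmp16 and Mmp25 were called in none of the 3 comparisons. Celf1 and Celf2 fell after both mimics by 0.07 to 0.26 on the log2 scale. Celf4 fell after poly(I:C) (-0.30) and had 0.09, not called, after poly(dA:dT), and Celf3 and Celf6 were too low to test.

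Slc19a1, the folate carrier of the Slc19 family, rose by 0.15 on the log2 scale after the DNA mimic and had a log2 fold change of 0.04, not called, after the RNA mimic, while Slc19a3, the other thiamine carrier, had at most 4 counts per group. Of the other Ces1 genes none was tested. Ces1a had 23, 15 and 16 counts in mock, poly(dA:dT) and poly(I:C), Ces1f had 2, 3 and 16, and the rest had at most 4 per group.

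Wnt9a was chosen, as were the other genes, on values of all 3 comparisons, poly(dA:dT) against mock among them. Of the 7 other Wnt ligands tested, 0 were called for poly(dA:dT) against mock by edgeR or by DESeq2, where 26.6% of all genes were called higher and 26.2% lower in edgeR. With total counts 1 was called higher, and 1 had an unadjusted p below 0.05 in edgeR, with a lower level. Few counts limit such calls: Wnt5b had 50 and 33 in all of mock and poly(dA:dT), Wnt11 had 41 and 21, and Wnt6 had 83 and 87. The 0 of 7 is therefore not read as setting Wnt9a apart. After poly(I:C), Wnt10b rose from 59.8 to 103.5 CPM and Wnt4 fell from 37.2 to 20.3 CPM, and neither was called after poly(dA:dT), where they had 61.9 and 36.8 CPM. Wnt11 rose by 0.83 on the log2 scale after poly(I:C) on 41 and 62 counts. In DESeq2, with no filter, with the filter of 50 counts in 3 libraries, or without mock replicate 1 or mock replicate 2, 1 of these Wnt ligands was called higher after poly(I:C) in place of 2, and without mock replicate 3 or poly(I:C) replicate 1, 2 were called lower in place of 1. Wnt5a, Wnt5b, Wnt6 and Wnt10a were called in none of the comparisons. Wnt9b, the closest relative of Wnt9a, had 0, 4 and 2 counts in the 3 groups.

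**Figure D4:**
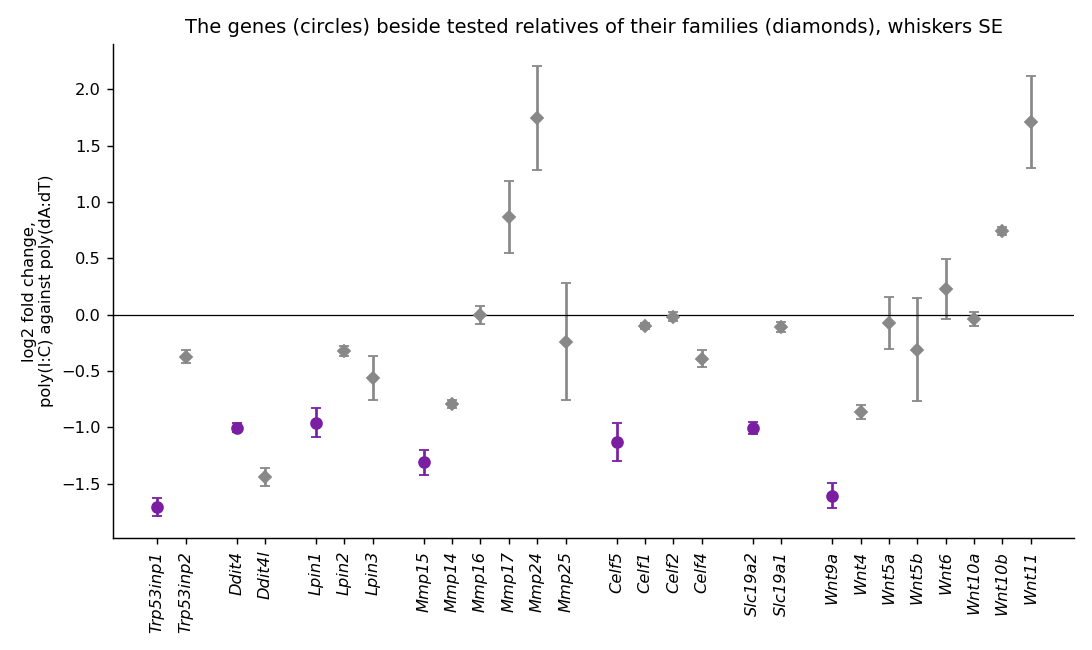
Fitted log2 fold change of poly(I:C) against poly(dA:dT) (vertical axis, whiskers 1 SE) for 7 of the 9 genes (purple circles) beside the tested relatives of their families (grey diamonds). Ddit4l (-1.44), Wnt4 (-0.87) and Mmp14 (-0.79) lie on the same side of 0 as their relatives Ddit4, Wnt9a and Mmp15, while Wnt10b (0.74), Wnt11 (1.71) and Mmp24 (1.74) lie on the other.

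Lists of pathway genes, 13 in all and holding none of the 9, were counted in the same fit. Their counts are to be read against the shares of all 14176 genes called. For the DNA mimic against mock, these shares were 26.6% higher and 26.2% lower. They were 39.8% and 36.3% for the RNA mimic against mock, and 31.3% and 32.1% for the RNA mimic against the DNA mimic. A count near or below its share shows no excess of calls in a list. The p53 list held targets of p53, the transcription factor that induces Trp53inp1, and also Trp53 itself and the paralog Trp53inp2, so its counts are not of targets alone. Its genes were called higher after poly(dA:dT) in 25 of 33 and lower in 4 (Trp53inp2, Sesn1, Bax and Rrm2b). The list's median log2 fold change was 0.44. Over all genes the medians were 0.01 and 0.04 for the mimics against mock and 0.00 between them. After poly(I:C), 21 of 33 were higher and 8 lower, with a median of 0.40. Between the mimics the list divided, with 9 higher and 17 lower after poly(I:C) and a median of -0.09. Mdm2, which encodes the ubiquitin ligase of p53, was 1.86-fold lower after poly(I:C) than after poly(dA:dT). Pmaip1, the BH3-only protein Noxa, was 2.18-fold higher, with 26.1 CPM in mock, 96.2 after the DNA mimic and 209.9 after the RNA mimic. Ddb2, a DNA damage recognition factor, and Pml, the organiser of nuclear bodies and an interferon-induced gene, were 2.28-fold and 1.91-fold higher after poly(I:C). Trp53 itself was at 192.7, 197.7 and 206.6 CPM in mock, poly(dA:dT) and poly(I:C).

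Autophagy genes of the ATG8 and LC3 pathway, to which Trp53inp1 is linked, were higher after poly(I:C) than after poly(dA:dT) in 3 of 24 (Optn, Atg14 and Atg16l1) and lower in 13, with a median of -0.09. Gabarapl1, an ATG8 protein, fell from 59.5 CPM in mock to 44.8 after the DNA mimic and 32.8 after the RNA mimic, and Gabarap fell from 284.7 to 249.7 and 197.6 CPM. Ulk1, the initiating kinase of autophagy, was at 91.0 CPM in mock and 91.1 after poly(dA:dT), not called, and fell to 65.9 after poly(I:C). Optn, a selective autophagy receptor, rose after both mimics, to 42.4 and 62.6 CPM from 35.1. Between the mimics, 5 were higher with total counts or a filter of 50 counts in 3 libraries. Against mock, 6 of 24 rose and 10 fell after poly(dA:dT), a balance that scaling by total counts turned to 10 and 8, and 3 rose in DESeq2. After poly(I:C), 5 rose and 13 fell, and 10 rose with total counts.

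The next list held components and regulators of mTORC1, the complex that Ddit4 inhibits. It also held Rictor, which is not part of mTORC1, and the mTORC1 substrates Rps6kb1, Eif4ebp1 and Eif4ebp2. Its counts are therefore not of components and regulators alone. Its genes were higher after poly(I:C) than after poly(dA:dT) in 5 of 27 (Mlst8, Deptor, Tsc2, Nprl2 and Nprl3) and lower in 14, with a median of -0.11. The 5 became 2 in DESeq2 or without poly(dA:dT) replicate 2 or poly(I:C) replicate 1, 3 with no filter or without poly(dA:dT) replicate 1, and 8 with total counts or the filter of 50 counts. Nprl3, a subunit of the GATOR1 inhibitor of mTORC1, rose from 30.6 CPM in mock to 41.9 after the DNA mimic and 60.5 after the RNA mimic. Eif4ebp2, a repressor of translation that mTORC1 inactivates, fell from 90.8 to 77.7 and 54.8 CPM, and Castor2, an arginine-pathway regulator of mTORC1, from 75.9 to 65.3 and 47.5 CPM. Against mock, 9 rose and 9 fell after poly(dA:dT), 10 and 5 with total counts, and 8 rose and 13 fell after poly(I:C).

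Ddit4 is also known as a target of hypoxia and of glucocorticoids. Hypoxia targets were higher after poly(I:C) than after poly(dA:dT) in 5 of 22 (Vegfa, Ndrg1, Bhlhe40, Hk2 and Pfkfb3) and lower in 12, with a median of -0.11. Pfkfb3 and Hk2, which promote glycolysis, rose after both mimics, Pfkfb3 from 43.4 CPM to 50.1 and 96.1. Bnip3, a mitophagy receptor, fell from 38.3 CPM to 32.6 and 24.4, and Ankrd37 was 1.56-fold lower after poly(I:C) than after poly(dA:dT). Against mock, 6 of 22 rose and 9 fell after poly(dA:dT), which total counts turned to 8 and 7, and 7 rose and 11 fell after poly(I:C). The glucocorticoid list also holds Nr3c1, the gene of the glucocorticoid receptor, so its counts are not of targets alone. This list had the opposite balance to Ddit4, with 9 of 14 tested (Nr3c1 among them) higher after the RNA mimic than after the DNA mimic. In the same comparison 1, Fkbp5, was lower, and the median was 0.31. Sgk1, a kinase gene named for serum and glucocorticoids, was at 37.6 CPM in mock, 36.9 after poly(dA:dT), not called, and 128.4 after poly(I:C). Cebpd, a transcription factor, rose from 6.61 CPM to 8.60 and 36.2, and Errfi1, an inhibitor of the EGF receptor, from 37.9 to 53.9 and 113.1. Against mock, 6 of 14 rose and 4 fell (Nr3c1, Klf9, Mt1 and Mt2) after poly(dA:dT), and 10 rose and 3 fell (Fkbp5, Klf9 and Mt1) after poly(I:C).

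**Figure D5:**
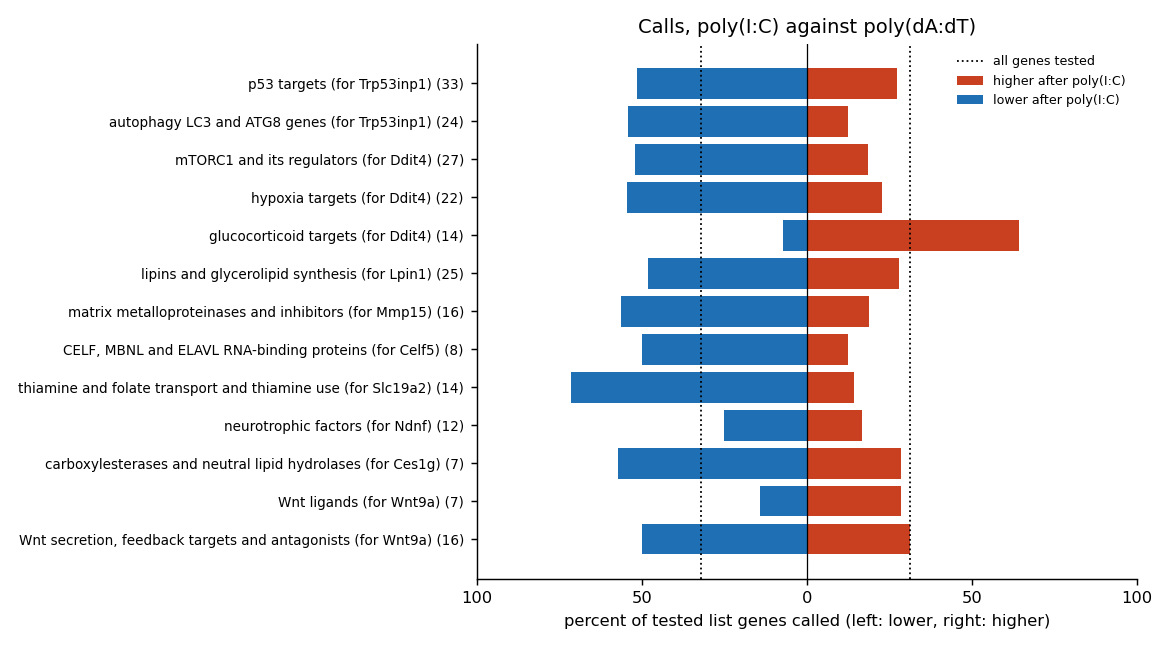
Percent of the tested genes of each list called lower (blue, left) or higher (red, right) after poly(I:C) than after poly(dA:dT), with the number tested in brackets; dotted lines mark the shares of all 14176 genes, 32.1% lower and 31.3% higher. The glucocorticoid list (64.3% higher, 7.14% lower), which also holds the receptor gene Nr3c1, and thiamine and folate genes (14.3% higher, 71.4% lower) have opposite balances.

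For Lpin1, genes of glycerolipid synthesis and turnover were higher after poly(I:C) than after poly(dA:dT) in 7 of 25 tested and lower in 12, with a median of -0.12. Lipe, hormone-sensitive lipase, rose from 3.73 CPM in mock to 5.17 after the DNA mimic and 11.3 after the RNA mimic, and Ppargc1a, the coactivator that works with lipin 1 in liver, from 3.15 to 3.99 and 9.39 CPM. Plpp3, a lipid phosphatase of the plasma membrane, rose after poly(I:C) and was not called after poly(dA:dT), with 37.8, 35.9 and 61.5 CPM in mock, poly(dA:dT) and poly(I:C). Against mock, 6 rose and 10 fell after poly(dA:dT), and 6 rose and 12 fell after poly(I:C). Total counts turned these to 9 and 7, and to 8 and 7.

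For Mmp15, the other metalloproteinases, their inhibitors and activators mostly fell after both mimics. After poly(dA:dT), 1 of 16 tested rose (Mmp28) and 10 fell, and after poly(I:C) 3 rose (Mmp17, Mmp24 and Mmp28) and 10 fell. Between the mimics, 3 were higher (Mmp17, Mmp24 and Timp3) and 9 lower after poly(I:C), and the list's median was -0.25. With the filter of 50 counts, 1 rose after poly(I:C) against mock and 1 was higher after poly(I:C) than after poly(dA:dT). Mmp19 went from 36.0 CPM in mock to 30.0 and 19.2, Reck, a membrane inhibitor of metalloproteinases, from 13.1 to 9.84 and 6.28, and Furin, the protease that activates membrane-type metalloproteinases, from 77.3 to 64.4 and 42.9. All 3 fell in both comparisons with mock, while Mmp15 was above mock after poly(dA:dT).

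For Celf5, RNA-binding proteins of the CELF, MBNL and ELAVL families were higher after poly(I:C) than after poly(dA:dT) in 1 of 8 tested and lower in 4 (Celf1, Celf4, Mbnl1 and Mbnl3), with a median of -0.07. The 1 was Elavl2, at 1.07, 1.01 and 1.62 CPM, and 0 were higher in DESeq2, with the filter of 50 counts, without any of the 3 poly(dA:dT) libraries in turn or without poly(I:C) replicate 1 or 3. Mbnl1, a splicing regulator, fell from 168.1 CPM in mock to 139.3 and 129.3. After poly(dA:dT), 0 of 8 rose and 4 fell in edgeR (Celf1, Celf2, Mbnl1 and Mbnl2), also at an unadjusted p below 0.05 and in DESeq2, and 2 rose and 2 fell with total counts. After poly(I:C), 1 of 8 rose (0 to 2 over the alternatives) and 6 fell (4 to 6) against mock, with a median of -0.23.

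For Slc19a2, genes of thiamine and folate transport and thiamine-dependent enzymes were higher after poly(I:C) than after poly(dA:dT) in 2 of 14 tested (Dhtkd1 among them) and lower in 10, with a median of -0.19. The 2 became 1 in DESeq2, with no filter, or without poly(dA:dT) replicate 1, poly(I:C) replicate 1 or poly(I:C) replicate 3. Pdha1, a subunit of pyruvate dehydrogenase, which uses a cofactor made from thiamine, fell from 203.3 CPM in mock to 169.6 and 134.1 CPM. After poly(dA:dT), 3 rose (Slc19a1 among them) and 6 fell, 5 and 2 with total counts, and 1 rose in DESeq2 or when mock replicate 1, or DNA replicate 1, was left out. After poly(I:C), 3 rose (Thtpa and Dhtkd1 among them) and 8 fell.

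For Ndnf, neurotrophic factors were higher after poly(I:C) than after poly(dA:dT) in 2 of 12 tested (Gdnf among them) and lower in 3 (Ntf5, Manf and Ptn), with a median of -0.09. Gdnf, a secreted factor that supports neurons, rose from 44.4 CPM in mock to 50.1 and 75.8. It rose after both mimics, whereas Ndnf was below mock after poly(dA:dT). After poly(I:C), 3 rose and 5 fell against mock (3 in DESeq2, with total counts, or without mock replicate 2 or poly(I:C) replicate 1). Summed markers of neurons lay between 73.5 and 79.6 CPM in mock, between 71.0 and 73.6 after the DNA mimic and between 65.4 and 73.0 after the RNA mimic. The highest sum after the RNA mimic was only just below the lowest mock sum. Of 5 neuron markers tested, 2 were called lower after the RNA mimic than in mock, and 0 were called between the mimics. The part of these markers in the level of Ndnf was not tested.

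For Ces1g, 16 of 23 carboxylesterases and neutral lipid hydrolases were too low to test. Between the mimics, 2 of 7 were higher after poly(I:C) (Ces2c and Ces2d-ps) and 4 lower (Ces2e, Nceh1, Lipa and Lpl), with a median of -0.29. Ces2d-ps had 7, 15 and 143 counts in mock, poly(dA:dT) and poly(I:C), and Ces2c had 19, 16 and 40. The 2 became 1 in DESeq2, in a fit of the 2 groups alone, or without poly(dA:dT) replicate 2, poly(I:C) replicate 1 or poly(I:C) replicate 2, and 0 with the filter of 50 counts. Lpl, lipoprotein lipase, fell from 90.5 CPM in mock to 73.4 and 58.5, and Lipa, the lysosomal acid lipase, from 150.3 to 124.1 and 113.9.

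For Wnt9a, genes of Wnt secretion, feedback and antagonism were higher after poly(I:C) than after poly(dA:dT) in 5 of 16 tested (Porcn, Nkd2, Lef1, Sfrp4 and Myc; 3 in DESeq2) and lower in 8, with a median of -0.04. Lef1, a transcription factor of Wnt signalling, was at 3.45 CPM in mock, 3.85 after poly(dA:dT), not called, and 12.1 after poly(I:C). Apcdd1, a membrane inhibitor of Wnt, fell from 36.7 to 31.2 and 19.95 CPM, and Sfrp1, a secreted inhibitor, was at 3.29, 3.11 (not called) and 1.86 CPM. After poly(dA:dT), where Wnt9a was highest, 3 of 16 rose (Znrf3, Sfrp4 and Myc) and 5 fell (Wls, Lgr4, Sfrp2, Apcdd1 and Ccnd1), 3 and 3 with total counts.

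The nearest tested gene on each side of the 9 genes gave 18 neighbours. Of these, 4 rose and 7 fell after poly(dA:dT), 7 rose and 9 fell after poly(I:C), and 5 were higher and 9 lower after poly(I:C) than after poly(dA:dT). Over all genes, 26.6% rose and 26.2% fell after poly(dA:dT), and 39.8% rose and 36.3% fell after poly(I:C). Comparing the mimics, 31.3% of all genes were higher and 32.1% lower after poly(I:C). Nfic and Ncln, 3592 and 3540 bases from Celf5, fell after both mimics, by 0.16 and 0.18 on the log2 scale after the DNA mimic and by 0.44 and 0.45 after the RNA mimic. Tnip3, 37550 bases from Ndnf, rose after both, whereas Ndnf was below mock after the DNA. Ccne2, 16972 bases from Trp53inp1, fell after both, and Usb1, 4761 bases from Mmp15, was called in none of the comparisons (log2 fold changes of 0.01 and -0.03 against mock). No neighbour was called higher after the DNA mimic and lower after the RNA mimic, or the reverse. Such opposite calls were rare over all genes, 76 and 98 of 14176, so their absence among 18 neighbours shows nothing about the neighbours.

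Fibroblast markers summed to between 7686 and 7853 CPM in mock, between 7402 and 7529 after the DNA mimic, and between 6640 and 6946 after the RNA mimic, and none of the 13 was at 0 in all 9 libraries, although Lum had 1, 0 and 0 counts in the 3 groups. The list went both ways after poly(I:C), with 7 of 12 tested lower and 4 higher than mock (Fn1, Prrx1, Twist1 and Twist2). Col1a1, a collagen chain, fell from 2996 CPM in mock to 2578 and 2019, Vim, vimentin, from 2265 to 1987 and 1756, and Fn1, fibronectin, rose from 1925 to 2401 and 2544. After poly(dA:dT), 1 of 12 rose (Fn1) and 8 fell. The part of these changes in the levels of the 9 genes was not tested. Endothelial markers summed to between 1.95 and 2.62 CPM in mock, between 3.70 and 4.88 after the DNA mimic and between 5.58 and 6.84 after the RNA mimic, with Tie1 and Emcn at 0. Of 4 endothelial markers tested, 3 rose after each mimic, and 2 were higher after the RNA mimic than after the DNA mimic. Macrophage markers summed to between 4.16 and 4.98 CPM in mock, between 2.92 and 3.55 after the DNA mimic and between 2.34 and 3.71 after the RNA mimic, below mock in both, with Ptprc at 0. Of 3 macrophage markers tested, 1 fell after the DNA mimic and 2 after the RNA mimic. Adipocyte markers summed to between 34.4 and 37.2 CPM in mock, between 32.8 and 33.6 after the DNA mimic and between 34.3 and 35.2 after the RNA mimic. Epithelial markers summed to between 8.74 and 10.6 CPM over the 9 libraries, and the groups overlapped. The sum hides opposite changes: of 3 epithelial markers tested, 2 rose and 1 fell after the RNA mimic against mock. After the DNA mimic, 0 of the 3 were called against mock. The part of these markers in the levels of the 9 genes was not tested either.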

How the data were processed

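The deposited values were raw counts of reads per Ensembl gene, 1 table per library, used as deposited by the authors. TopHat2 2.1.0, HTSeq and DESeq2, with the build GRCm38.p4, are named in the submitters' processing notes and are credited per the labels. Which annotation was counted, whether strand was used and how reads with several possible origins were treated are points not given in the sources used here. Of the 46603 identifiers, 46091 were matched in GENCODE M21 and the other 512 held 0.0588% of the counts.

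Genes were filtered with filterByExpr and tested with edgeR 4.0.16 in R 4.3.3 (TMM, robust quasi-likelihood test, two-sided, 1 fit of all 9 libraries with 6 residual degrees of freedom, prior count 0.125, Benjamini-Hochberg adjustment over the 14176 genes). CPM used TMM-scaled library sizes. The SE of a log2 fold change is its size divided by the square root of F. The fitting script was tested on simulated data.

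The 9 genes and all gene lists were chosen with earlier results of these data known. Genes are named by rule: the 9, Actb, up to 4 genes of each list (called between the mimics, a mean of at least 1 CPM, largest absolute change), tested relatives, nearest tested neighbours and the 3 closest profiles by correlation, computed on log2 CPM with a prior count of 2. Other members of short counts were named after their values were seen. A few list members and 1 neighbour are not reported here by name. The alternatives were DESeq2 1.42.0, other scalings and filters, fits of the groups compared alone, the replicate number as a term, and leaving out each library. No pair of replicates agreed within sampling noise (chi-square per degree of freedom 1.64 to 2.1).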

Additional observations from a re-analysis of the deposited data

How the results depend on the processing

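Over 17 alternatives, the counts of genes called stayed within 1.5 times the reported ones in all 51 values. With the replicate block they were 7384, 10724 and 8905 for the DNA mimic against mock, the RNA mimic against mock and the RNA against the DNA mimic, beside 7490, 10787 and 8981 without it. No pairing by replicate number was seen: deviations from the group means correlated at -0.0138 to 0.0225 for libraries of the same number and at -0.0326 to 0.0242 for others. Noise of genes with few counts weighs on these correlations, so a pairing is not excluded. DESeq2 called 6343, 10291 and 7943. Of 456 log2 fold changes of the 9 genes, none changed sign and 9 moved by more than the spread between replicates, 7 of them with total counts, where poly(I:C) against mock gave -0.32 for Ddit4, -0.36 for Slc19a2, -0.68 for Trp53inp1 and -0.66 for Mmp15. Ces1g did not pass a filter of 50 counts in 3 libraries. Of 1428 counts of list genes called, 75 moved by over 1.5 times, mostly counts under 10. Depth limits Ces1g, Ndnf and Celf5 most.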
